A study of Homo sapiens with 9 samples.

Results

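The 32 genes described here belong to the cellular response to low oxygen and to glycolysis, and were chosen by name for what their products do. They comprise 11 targets of the hypoxia-inducible factors (HIF) outside glycolysis, 2 glucose transporters and 19 glycolytic enzymes. All 32 were found among the 58233 gene identifiers of the files, and all 32 were among the 15440 genes with enough counts to be tested. RNA-seq gene counts came from 9 libraries of UPCI-SCC-040, an oral squamous carcinoma line from the tongue. In 3 libraries the cells had received the SMAD-activating cytokine TGF-β1 (transforming growth factor beta 1) at 5 ng/ml for 48 h, in 3 the same dose for 72 h, and 3 were untreated controls. Replicates 1, 2 and 3 of every group were cells at passages 12, 13 and 8, and the values of a group are given below in that passage order. TGF-β1 was added in medium free of serum and antibiotics, while the growth medium contained serum. Controls are titled 0 h, and whether they too went without serum is not stated, so effects of TGF-β1, of withdrawn serum and of time cannot be told apart. Oxygen is not mentioned as a variable in the labels.

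When oxygen is scarce, prolyl hydroxylases of the EGLN family stop marking the HIF alpha subunits for destruction, and HIF then activates genes by binding short DNA elements with the core letters ACGTG or GCGTG. Among its targets are genes for acid balance, blood vessel growth, mitophagy and most steps of glycolysis, the pathway that turns glucose into pyruvate and lactate. Head and neck squamous carcinomas are known for hypoxic regions in which carbonic anhydrase and glucose transporter proteins are commonly used as markers.

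Library totals ran from 12544690 to 20438727 counts. The passage 8 library at 72 h stood apart from the other 72 h libraries, with 1.54% of its counts in the nuclear RNA MALAT1, against 0.437% and 0.409%, and 1.00% in ribosomal protein genes, against 1.53% and 1.76%. The summed level of 10 squamous markers was 16853 to 33134 CPM (counts scaled to library size) in treated libraries and 11594 to 20971 CPM in controls. The 8 fibroblast markers summed to 20.2 to 112 CPM in treated libraries and 10.2 to 12.6 CPM in controls, nearly all of it from COL1A1 and COL1A2. COL1A1 was called higher at both times (log2 fold changes 2.51 and 2.29). DCN and LUM reached at most 0.0499 and 0.185 CPM in any library. PDGFRB averaged 0.344 CPM at 72 h and 0.0239 CPM in controls, and COL3A1 0.206 and 0.0201 CPM, with too few counts to be tested. Leukocyte markers summed to at most 1.08 CPM and endothelial markers to at most 2.66 CPM. In bulk RNA, fewer cells of a kind and less RNA per cell cannot be told apart.

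After TGF-β1 the HIF targets split, with VEGFA (3.20-fold at 48 h and 5.28-fold at 72 h) and NDRG1 higher than in controls and CA9 (0.101 and 0.0985 of the control level) and ADM lower. Along glycolysis, the genes for glucose uptake and its capture, SLC2A1 and HK1, rose, as did PFKFB4 and ALDOC, while PFKM, ENO1 and LDHB fell. Of the 11 HIF targets, 2 were higher and 2 lower at 48 h, and 4 were higher and 2 lower at 72 h, in each case against control and at a Benjamini-Hochberg adjusted p under 0.05 in edgeR's quasi-likelihood test. Of the 19 glycolytic enzymes, 3 were higher and 3 lower at 48 h, and 3 were higher and 8 lower at 72 h. Over all tested genes, 14.9% were higher and 16% lower at 48 h, or 31% in either direction, and 20.4% were higher and 19.4% lower at 72 h, or 39.8% in either direction. The 8 lower enzymes made up 42.1% of their class. By unadjusted p under 0.05, 15 of the 32 genes differed at 48 h and 19 at 72 h, against 43.3% and 49.7% of all tested genes. In 10 of the 32 all treated libraries were above all controls and in 12 below at 48 h, against 25.6% and 28.1% of all genes, and the counts were again 10 and 12 at 72 h, against 27.3% and 27.7%. The median log2 fold change of the HIF targets was 0.32 at 48 h and 0.18 at 72 h, that of the enzymes was -0.41 and -0.36, and that of all tested genes was -0.00 and 0.03. A difference between the classes was not tested.

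At both times 6 of the 32 genes were called higher, namely SLC2A1, HK1, PFKFB4, ALDOC, VEGFA and NDRG1, and 5 were called lower, namely CA9, ADM, PFKM, ENO1 and LDHB. The same-direction calls at both times made up 12.9% (higher) and 13.9% (lower) of all tested genes, and the 2 comparisons share their control libraries. A further 2 genes were called higher at 72 h alone, ANKRD37 and EGLN3, and 5 were called lower at 72 h alone, GPI, PFKP, TPI1, GAPDH and LDHA, but none of these differed between 72 h and 48 h after adjustment. The other 14 genes passed the threshold at neither time. In an edgeR fit of only the 48 h and control libraries, EGLN3 was called higher at 48 h too (adjusted p = 0.00911). There GPI (adjusted p = 0.011), GAPDH (0.0159), TPI1 (0.0345) and PFKP (0.0383) were called lower, so for these 5 genes the 72 h restriction depended on the fit.

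**Figure D1:**
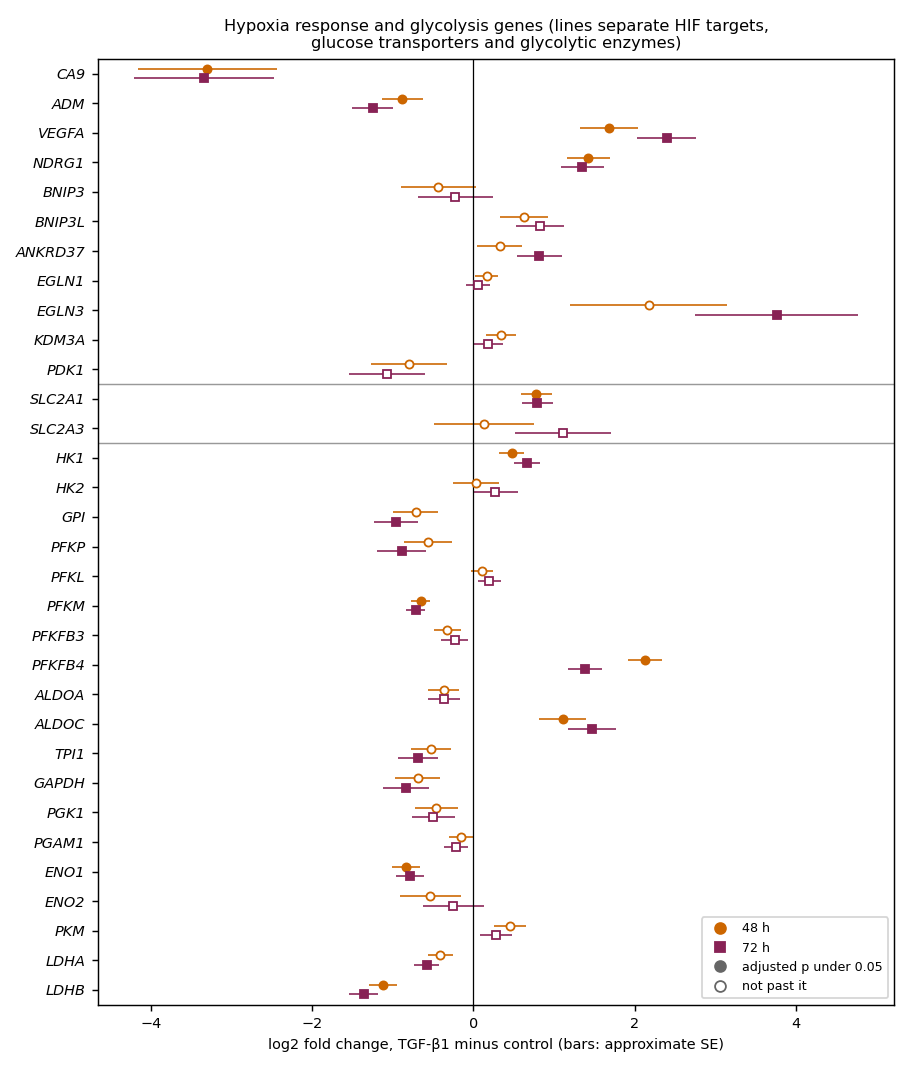
Log2 fold change of each gene at 48 h (circles) and 72 h (squares) against control, with approximate standard errors and filled symbols for adjusted p under 0.05. CA9, at -3.30 and -3.34, lies farthest to the left, while most enzymes from GPI to LDHB lie left of 0, except PFKL, PFKFB4, ALDOC and PKM.

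Among the HIF targets that fell, CA9 changed most. CA9 (ENSG00000107159, chr9:35673856-35681159 on hg38) encodes carbonic anhydrase IX, a cell surface enzyme that helps cells export acid, and it is one of the most used markers of hypoxia in tumours. Its promoter is shown because a known HIF element lies close to the start of the gene. It is the 250 bases upstream of the RefSeq start (GRCh38.p14, chr9:35673678-35673927, plus strand), with matches to the core letters on either strand in capitals. The only match began 18 bases upstream of the start and read ACGTG on the minus strand.
CA9: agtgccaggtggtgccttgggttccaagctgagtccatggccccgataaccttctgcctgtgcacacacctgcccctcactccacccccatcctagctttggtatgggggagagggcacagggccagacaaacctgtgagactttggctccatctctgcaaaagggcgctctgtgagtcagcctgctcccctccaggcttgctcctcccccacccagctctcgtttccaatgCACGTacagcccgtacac

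CA9 stood at 2.14, 8.76 and 1.63 CPM at 48 h, at 1.47, 9.51 and 1.24 CPM at 72 h, and at 32.7, 49.8 and 42.2 CPM in controls. Every treated library was below every control library, and within each treated group the passage 13 library was several times above the others. The fitted log2 fold change was -3.30 ± 0.87 (approximate SE) at 48 h (adjusted p = 0.0221) and -3.34 ± 0.87 at 72 h (adjusted p = 0.0163), a fall to 0.101 and 0.0985 of the control level. The 48 h call was lost without the 48 h libraries of passage 12 (log2 fold change -2.97) or passage 8 (-2.94), or the control libraries of passage 13 (-3.16) or passage 8 (-3.30), and both calls were lost with no filter on low counts (-3.29 and -3.32). They were also lost without passage 12 (-3.12 and -3.09) or passage 8 (-2.94 and -2.91) in all groups. Without the passage 13 library of the treated group the log2 fold change was -4.44 at 48 h (adjusted p = 0.0164) and -4.93 at 72 h (adjusted p = 0.00404). The CA9 exons share 38.5% of their bases with ARHGEF39 on the opposite strand, which averaged 82.1 CPM at 48 h, 69.0 CPM at 72 h and 176.5 CPM in controls, and the strand setting of the counting is not stated. The part of ARHGEF39 reads in the CA9 values was not tested.

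ADM, which encodes the vasodilator peptide adrenomedullin, stood at 63.9, 32.8 and 49.6 CPM at 48 h, at 50.1, 29.7 and 33.7 CPM at 72 h, and at 82.9, 93.7 and 93.9 CPM in controls. The treated and control libraries did not overlap, and unlike CA9 it was lowest in passage 13. On the log2 scale its change was -0.88 ± 0.25 at 48 h (adjusted p = 0.0258) and -1.25 ± 0.25 at 72 h (adjusted p = 0.00485). The 48 h call was lost without any 1 control library (-0.95, -0.86 and -0.86 in order of passages 12, 13 and 8) and without the 48 h library of passage 13 (-0.67) or passage 8 (-0.90), and the 72 h call without passage 8 in all groups (-1.14). Leaving out passage 13 (-0.62) or 8 (-0.86) in all groups ended the 48 h call too.

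VEGFA and NDRG1, which held the most counts of the HIF targets, rose. VEGFA (ENSG00000112715), the main growth factor of blood vessel formation, stood at 1002, 519 and 664.4 CPM at 48 h, at 767, 1122 and 1711 CPM at 72 h, and at 153, 252 and 278 CPM in controls. No control library reached the lowest treated one. Its fitted log2 fold change was 1.68 ± 0.36 at 48 h (adjusted p = 0.0083) and 2.40 ± 0.37 at 72 h (adjusted p = 0.00144), or 3.20-fold and 5.28-fold. Without passage 12 (1.16) or 13 (1.97) in all groups, VEGFA lost its 48 h call. NDRG1, a stress-responsive gene linked to differentiation and suppression of metastasis, stood at 1067, 588 and 597 CPM at 48 h, at 596, 895 and 646 CPM at 72 h, and at 328, 232 and 277 CPM in controls. Here too the groups were apart, and the highest treated library came from passage 12 at 48 h but passage 13 at 72 h. Its log2 fold change was 1.43 ± 0.27 at 48 h (adjusted p = 0.00477) and 1.35 ± 0.27 at 72 h (adjusted p = 0.00424), and the 72 h call was lost without passage 13 in all groups (1.04).

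The 11 HIF targets together took 0.154% to 0.278% of the counts in treated libraries and 0.0992% to 0.106% in controls. Without VEGFA and NDRG1, a choice made after the values were seen, the other 9 summed to 480, 494 and 404 CPM at 48 h, 371, 691 and 460 CPM at 72 h, and 485, 482 and 456 CPM in controls, so that the groups overlapped.

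EGLN3 and ANKRD37 were called at 72 h. EGLN3 encodes a HIF prolyl hydroxylase that HIF itself induces, and stood at 14.8, 7.72 and 29 CPM at 48 h, at 13.7, 11.7 and 129 CPM at 72 h, and at 4.04, 3.22 and 4.08 CPM in controls. All treated libraries were above all controls, but the passage 8 library at 72 h, which stands apart in other measures, was 11 times the lowest library of its group. The log2 fold change was 2.18 ± 0.97 at 48 h (adjusted p = 0.122) and 3.77 ± 1.01 at 72 h (adjusted p = 0.0189). Without the passage 8 library at 72 h the log2 fold change at 72 h was 1.75 (adjusted p = 0.0186), and without the passage 8 library at 48 h that at 48 h was 1.58 (adjusted p = 0.295). The 72 h call was lost without any 1 control library (3.81, 3.65 and 3.81), without passage 12 (4.27) or 13 (4.11) in all groups, and with no filter (3.73). Leaving out the passage 8 library at 72 h also put the 48 h difference past the threshold (2.18, adjusted p = 0.00456), and its part in the spread of the main fit was not tested. ANKRD37, an ankyrin repeat gene with few counts, stood at 2.84, 2.21 and 1.47 CPM at 48 h, at 2.82, 3.30 and 3.15 CPM at 72 h, and at 1.93, 1.61 and 1.72 CPM in controls. Its log2 fold change was 0.32 at 48 h (adjusted p = 0.41) and 0.82 at 72 h (adjusted p = 0.0407), and the 72 h call was lost on leaving out any control library (0.75 to 0.89), any 72 h library (0.77 to 0.88) or the 48 h library of passage 13 (0.82), and with no filter (0.83). Leaving out any passage from all groups ended that call too (0.70 to 0.95). The exons of ANKRD37 share 35.2% of their bases with UFSP2 on the opposite strand.

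EGLN1, which encodes the main oxygen sensor of the family, stood at 58.9, 59.0 and 58.9 CPM at 48 h, at 48.6, 68.5 and 47.3 CPM at 72 h, and at 50.9, 53.4 and 53.6 CPM in controls, with log2 fold changes of 0.16 and 0.06 that did not pass the test. Ratios of paired genes, here and below, are of CPM per kilobase of exon, and so differ from ratios of the CPM values printed. The ratio of EGLN3 to EGLN1 was 0.248, 0.129 and 0.486 at 48 h, 0.278, 0.168 and 2.69 at 72 h, and 0.0784, 0.0595 and 0.0752 in controls. The ratio was thus above all controls in each treated library, by a mean of 1.82 at 48 h and 2.83 at 72 h on the log2 scale. The 72 h value was 1.62 without the passage 8 library and 3.62 without the passage 13 library.

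BNIP3 and BNIP3L encode related receptors that mark mitochondria for removal, and were read as a pair. BNIP3 stood at 42.6, 75.1 and 36.2 CPM at 48 h, at 40, 108 and 30.3 CPM at 72 h, and at 78.7, 64.2 and 65.4 CPM in controls, with the passage 13 library of each treated group within or above the control values. BNIP3L stood at 213, 218 and 175 CPM at 48 h, at 163, 371 and 160 CPM at 72 h, and at 139, 131 and 121 CPM in controls, with no overlap. Neither passed the test at either time, with log2 fold changes of -0.44 and -0.22 for BNIP3, and 0.63 (adjusted p = 0.136) and 0.83 (adjusted p = 0.052) for BNIP3L. With the passage number as a replicate block, BNIP3L was called higher at 72 h (0.73, adjusted p = 0.0391), as it was by DESeq2 (adjusted p = 0.0236), with upper-quartile scaling (0.0384), with no filter (2.9e-05) and without the 72 h library of passage 12 (0.0257) or 8 (0.019). At 48 h it was called higher with no filter (adjusted p = 0.00352), in a fit of only the 48 h and control libraries (0.00252) and without the 72 h library of passage 13 (0.00724). At 72 h BNIP3 was called lower without the passage 13 library (-0.98, adjusted p = 0.0362) and had the opposite sign without the passage 8 library (0.10). The passage 13 library was far above the others in both genes at 72 h, but only in BNIP3 at 48 h. The ratio of BNIP3 to BNIP3L was 0.162, 0.279 and 0.167 at 48 h, 0.198, 0.236 and 0.153 at 72 h, and 0.458, 0.395 and 0.436 in controls. The mean log2 ratio differed from control by -1.13 at 48 h and -1.15 at 72 h, and no treated library reached the controls.

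PDK1, the kinase that turns off pyruvate dehydrogenase and so keeps pyruvate out of mitochondria, stood at 25.8, 40.5 and 12.6 CPM at 48 h, at 17.3, 36.4 and 11.9 CPM at 72 h, and at 51.6, 47.0 and 39.3 CPM in controls. The treated groups were wide, and at 48 h the passage 13 library lay among the controls. The log2 fold changes of -0.80 (adjusted p = 0.227) and -1.07 (adjusted p = 0.103) did not pass the test, but with the passage number as a block they did (-0.97, adjusted p = 0.0287, and -1.24, adjusted p = 0.00884), and at 72 h also by DESeq2 (-1.06, adjusted p = 0.0434) and without the passage 13 library (-1.65, adjusted p = 0.0233). KDM3A, a histone lysine demethylase, averaged 48.8 CPM at 48 h, 43.6 CPM at 72 h and 38.4 CPM in controls, and its log2 fold changes of 0.35 and 0.18 did not pass the test.

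**Figure D2:**
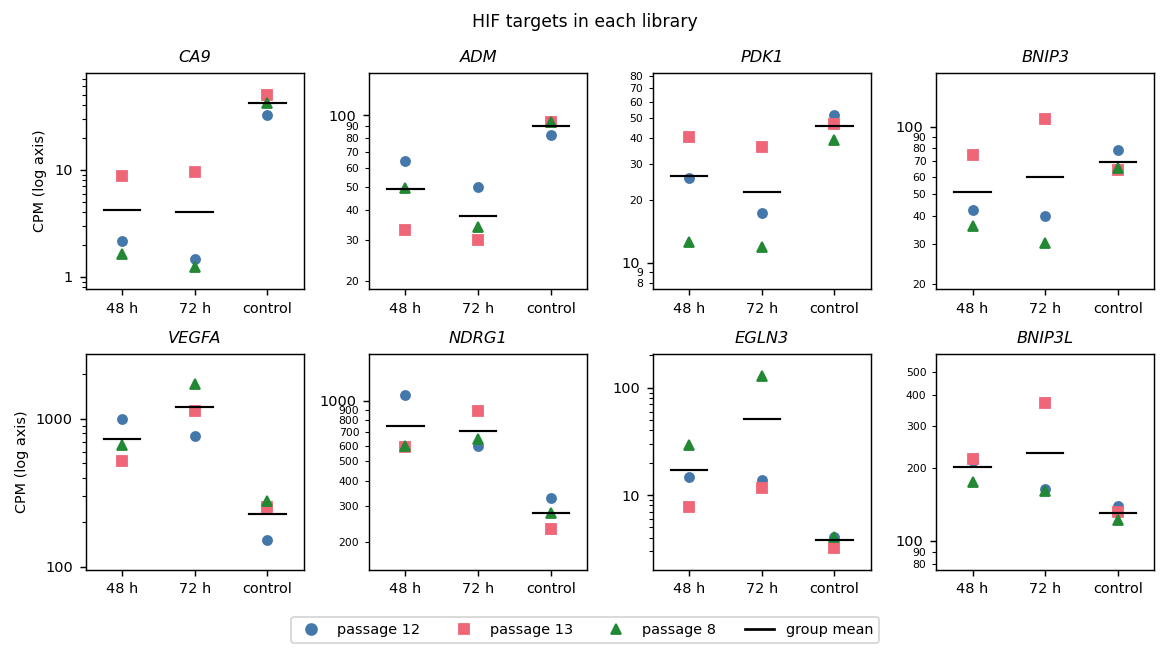
CPM on a log axis for 8 HIF targets in each library, by group (48 h, 72 h, control) and passage (symbol), with group means as lines. CA9 and ADM lie below the controls and VEGFA, NDRG1, EGLN3 and BNIP3L above them, while the passage 13 libraries (squares) lie at the top of the treated groups for CA9, PDK1 and BNIP3.

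Glucose enters cells through the SLC2A transporters, and the widely expressed SLC2A1 carried nearly all of the counts here. SLC2A1 stood at 661, 486 and 436 CPM at 48 h, at 486, 500 and 609 CPM at 72 h, and at 354, 275 and 293 CPM in controls, with no overlap. On the log2 scale its change was 0.78 ± 0.19 at 48 h (adjusted p = 0.0139) and 0.79 ± 0.19 at 72 h (adjusted p = 0.00962), or 1.72-fold and 1.73-fold. The 48 h call was lost without the 48 h library of passage 12 (0.59) or the control libraries of passage 13 (0.70) or 8 (0.74), and the 72 h call without passage 13 in all groups (0.76). Leaving out passage 12 (0.70) or 13 (0.78) in all groups ended the 48 h call too. SLC2A3, a high-affinity transporter best known from neurons, stood at 0.648, 2.39 and 0.489 CPM at 48 h, at 1.69, 3.93 and 1.42 CPM at 72 h, and at 1.02, 1.34 and 0.860 CPM in controls. These values rest on 234 counts in all 9 libraries and did not pass the test, with log2 fold changes of 0.13 and 1.11, although with the passage block the 72 h difference did (1.03, adjusted p = 0.0478). Pseudogene copies of SLC2A3 held counts equal to 24.4% of its own.

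Hexokinases trap glucose in the cell by phosphorylating it. HK1, the broadly expressed form, stood at 208, 227 and 218 CPM at 48 h, at 227, 207 and 311 CPM at 72 h, and at 152, 150 and 168 CPM in controls, and the groups did not overlap. Its fitted log2 fold change was 0.47 ± 0.16 at 48 h (adjusted p = 0.0471) and 0.66 ± 0.16 at 72 h (adjusted p = 0.00967). The 48 h call was lost on leaving out any 1 library of the 48 h (0.44 to 0.51) or control group (0.44 to 0.52), or the 72 h library of passage 12 (0.47), and the 72 h call without passage 12 in all groups (0.70). Without passage 12 (0.49) or 13 (0.43) in all groups, HK1 also lost its 48 h call. HK2, the form that HIF induces, stood at 88.2, 90.4 and 38.6 CPM at 48 h, at 79.2, 100 and 77.2 CPM at 72 h, and at 78.6, 70.8 and 63.3 CPM in controls. Its groups overlapped, and its log2 fold changes of 0.03 and 0.27 did not pass the test, the sign at 48 h being negative with the passage block (-0.036).

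GPI, which converts glucose 6-phosphate to fructose 6-phosphate, stood at 227, 318 and 197 CPM at 48 h, at 214, 286 and 127 CPM at 72 h, and at 403, 407 and 412 CPM in controls. Controls differed little from each other and every treated library was below them. The log2 fold change was -0.72 ± 0.27 at 48 h (adjusted p = 0.0716, or 0.0211 with the passage block) and -0.96 ± 0.28 at 72 h (adjusted p = 0.0205). The 72 h call was lost without any 1 control library (-0.97, -0.97 and -0.96) or without passage 12 in all groups (-0.99). At 48 h GPI was called lower without the 48 h library of passage 13 (-0.94) or the 72 h library of passage 8 (-0.72).

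Phosphofructokinase, the committed step, is built from 3 kinds of subunit. PFKM, the muscle form, stood at 37.5, 37.3 and 37.8 CPM at 48 h, at 36.9, 31.8 and 39.4 CPM at 72 h, and at 55.2, 61.6 and 60.7 CPM in controls. The 48 h libraries nearly coincided and no treated library reached the controls, with a log2 fold change of -0.66 ± 0.12 at 48 h (adjusted p = 0.00351) and of -0.72 ± 0.12 at 72 h (adjusted p = 0.00163). Without passage 12 (-0.70) or 13 (-0.60) in all groups, PFKM lost its 48 h call. PFKM exons share 8.58% of their bases with SENP1 on the opposite strand, which averaged 35.2 CPM at 48 h, 34.2 CPM at 72 h and 57.7 CPM in controls, and its part in the PFKM values was not tested. PFKP, the platelet form, stood at 291, 331 and 200 CPM at 48 h, at 276, 260 and 118 CPM at 72 h, and at 419, 412 and 383 CPM in controls. The groups did not overlap, and the passage 8 library was the lowest of each treated group. On the log2 scale its change was -0.56 ± 0.30 at 48 h (adjusted p = 0.181) and -0.89 ± 0.30 at 72 h (adjusted p = 0.0408). The 72 h call was lost without any 1 control library (-0.87, -0.88 and -0.93), the 72 h library of passage 13 (-1.03) or the 48 h library of passage 12 (-0.89), and in a fit of only the 72 h and control libraries (-0.88). That call was also lost without passage 12 (-1.07) or 13 (-1.02) in all groups. At 48 h PFKP was called lower without the 72 h library of passage 8 (-0.56, adjusted p = 0.0249).

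PFKL, the liver form, stood at 130, 155 and 119 CPM at 48 h, at 144, 159 and 127 CPM at 72 h, and at 133, 114 and 129 CPM in controls, and its log2 fold changes of 0.11 and 0.20 did not pass the test. Per kilobase of exon, the ratio of PFKP to PFKL was 4.13, 3.93 and 3.10 at 48 h, 3.54, 3.02 and 1.71 at 72 h, and 5.82, 6.64 and 5.48 in controls. The ratio of PFKM to PFKL was 0.352, 0.293 and 0.388 at 48 h, 0.312, 0.243 and 0.379 at 72 h, and 0.507, 0.657 and 0.575 in controls. Both ratios were below the controls in every treated library.

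PFKFB enzymes set the level of fructose 2,6-bisphosphate, the strongest activator of phosphofructokinase, and the 2 HIF-inducible forms gave different values. PFKFB4 (ENSG00000114268) stood at 48.7, 30.9 and 43.5 CPM at 48 h, at 26.8, 19.1 and 27.4 CPM at 72 h, and at 9.71, 8.22 and 10.2 CPM in controls. All treated libraries were above the controls, and all 72 h libraries were below all 48 h libraries. Its fitted log2 fold change was 2.13 ± 0.21 at 48 h (adjusted p = 0.000492) and 1.39 ± 0.21 at 72 h (adjusted p = 0.00124), or 4.39-fold and 2.61-fold. PFKFB4 shares 4.73% of its exon bases with UCN2 on the same strand, which averaged 22.9 CPM at 48 h, 11.9 CPM at 72 h and 5.30 CPM in controls, and how reads were divided between them was not tested. PFKFB3 stood at 82.0, 88.9 and 71.0 CPM at 48 h, at 99.3, 89.9 and 68.5 CPM at 72 h, and at 110, 108 and 84.8 CPM in controls, which overlapped, with log2 fold changes of -0.33 and -0.23 that did not pass the test. The ratio of PFKFB4 to PFKFB3 was 0.595, 0.348 and 0.614 at 48 h, 0.271, 0.213 and 0.401 at 72 h, and 0.0882, 0.0761 and 0.120 in controls, the largest mean difference from control among the 10 pairs at 48 h (2.43 on the log2 scale). The promoter of PFKFB4 is shown because the gene rose most among the enzymes at 48 h. These are the 250 bases upstream of its RefSeq start (GRCh38.p14, chr3:48556804-48557053, minus strand), in which GCGTG occurred 1 time, beginning 166 bases upstream.
PFKFB4: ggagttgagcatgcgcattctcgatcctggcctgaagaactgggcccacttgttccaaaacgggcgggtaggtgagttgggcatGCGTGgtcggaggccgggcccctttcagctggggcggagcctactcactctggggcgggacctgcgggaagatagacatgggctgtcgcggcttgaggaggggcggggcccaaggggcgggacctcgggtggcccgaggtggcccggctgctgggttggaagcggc

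Aldolase splits the sugar into triose phosphates. ALDOC, known chiefly from brain, stood at 17.0, 35.5 and 26.0 CPM at 48 h, at 21.8, 36.7 and 42.4 CPM at 72 h, and at 12.0, 12.1 and 12.3 CPM in controls, where the libraries nearly coincided. The log2 fold change was 1.11 ± 0.30 at 48 h (adjusted p = 0.0201) and 1.47 ± 0.30 at 72 h (adjusted p = 0.00464). The 48 h call was lost without any 1 control library (1.10, 1.10 and 1.11) or the 48 h library of passage 13 (0.82), and the 72 h call without passage 8 in all groups (1.28). Leaving out passage 13 (0.84) or 8 (1.12) in all groups ended the 48 h call too. ALDOA, the main form in most tissues, stood at 480, 639 and 455 CPM at 48 h, at 529, 645 and 408 CPM at 72 h, and at 667, 693 and 676 CPM in controls, without overlap, yet its log2 fold changes of -0.37 (adjusted p = 0.177) and -0.36 (adjusted p = 0.164) did not pass the test. ALDOA exons share 55.6% of their bases with other annotated genes, most of it with AC093512.2 on the same strand. AC093512.2 is not among the gene identifiers of the files. The ratio of ALDOC to ALDOA was 0.0472, 0.0743 and 0.0764 at 48 h, 0.0552, 0.0761 and 0.139 at 72 h, and 0.0241, 0.0234 and 0.0242 in controls. The ALDOC promoter, the 250 bases upstream of its RefSeq start (GRCh38.p14, chr17:28576896-28577145, minus strand), is shown because, although the gene rose, it holds as many matches to the core letters (5) as that of LDHA, which fell. The farthest is the palindrome CACGTG, counted on each strand.
ALDOC: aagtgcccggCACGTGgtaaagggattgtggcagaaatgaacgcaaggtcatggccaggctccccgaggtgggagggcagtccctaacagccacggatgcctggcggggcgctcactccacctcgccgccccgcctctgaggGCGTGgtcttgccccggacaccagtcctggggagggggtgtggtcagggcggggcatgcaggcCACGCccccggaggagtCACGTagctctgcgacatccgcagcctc

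TPI1, which interconverts the triose phosphates, stood at 288, 354 and 230 CPM at 48 h, at 294, 320 and 165 CPM at 72 h, and at 434, 437 and 385 CPM in controls. GAPDH, often used as a housekeeping gene for normalisation, stood at 675, 971 and 641 CPM at 48 h, at 799, 868 and 402 CPM at 72 h, and at 1242, 1314 and 1138 CPM in controls. Neither gene's treated libraries overlapped the controls, and the passage 8 library was lowest in each treated group. The log2 fold change of TPI1 was -0.53 at 48 h (adjusted p = 0.127, or 0.036 with the passage block) and -0.69 at 72 h (adjusted p = 0.048). That of GAPDH was -0.69 at 48 h (adjusted p = 0.087, or 0.0306 with the block) and -0.84 at 72 h (adjusted p = 0.0385). Both 72 h calls were lost without any 1 control library (-0.66 to -0.75 for TPI1 and -0.79 to -0.89 for GAPDH) and without the 48 h library of passage 12 (-0.69 and -0.83). That of TPI1 was also lost without the 72 h libraries of passage 12 (-0.79) or 8 (-0.44), with upper-quartile scaling (-0.64, adjusted p = 0.0522) and with DESeq2 size factors (-0.68, adjusted p = 0.0542). Fitting only the 72 h and control libraries ended the 72 h calls of TPI1 (-0.68) and GAPDH (-0.83). The GAPDH call at 72 h was also lost without passage 12 (-0.95), 13 (-0.98) or 8 (-0.61) in all groups. For TPI1 the 72 h call was lost without passage 12 (-0.76) or 13 (-0.83) in all groups. At 48 h, GAPDH and TPI1 were called lower without the 72 h library of passage 8 (-0.69 and -0.53). Annotated pseudogene copies of GAPDH, 62 in number, held counts equal to 1.09% of its own.

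PGK1, the first enzyme of the pathway to make ATP, stood at 493, 650 and 435 CPM at 48 h, at 480, 725 and 336 CPM at 72 h, and at 758, 746 and 669 CPM in controls. The passage 13 library at 72 h lay among the controls, and the log2 fold changes of -0.46 (adjusted p = 0.208) and -0.50 (adjusted p = 0.157) did not pass the test. With the passage block the 72 h difference did (-0.56, adjusted p = 0.04), as it did without the 72 h library of passage 13 (-0.82, adjusted p = 0.0247). PGAM1, phosphoglycerate mutase, lay at 23.2 to 30.6 CPM at 48 h, 23.6 to 27.3 CPM at 72 h and 26.8 to 33.0 CPM in controls. Its log2 fold changes of -0.15 and -0.22 did not pass the test, and pseudogene copies held counts equal to 8.44% of its own.

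ENO1, the main enolase, which makes phosphoenolpyruvate, stood at 1464, 1851 and 1492 CPM at 48 h, at 1784, 1725 and 1464 CPM at 72 h, and at 2776, 3137 and 2694 CPM in controls. The gap between the groups was wide beside their spread. On the log2 scale its change was -0.84 ± 0.17 at 48 h (adjusted p = 0.00698) and -0.79 ± 0.17 at 72 h (adjusted p = 0.0065), a fall to 0.559 and 0.578 of control. Both calls were lost without passage 12 (-0.80 and -0.87) or passage 13 (-0.87 and -0.75) in all groups, which leaves 2 libraries a group. ENO2, the neuronal form, stood at 5.19, 10 and 4.81 CPM at 48 h, at 7.10, 12.6 and 4.70 CPM at 72 h, and at 8.56, 11 and 9.60 CPM in controls. The groups overlapped, and its log2 fold changes of -0.54 and -0.25 did not pass the test. PKM, pyruvate kinase, the last step to pyruvate, held the most counts of the 32 genes, at 3745, 3781 and 4335 CPM at 48 h, 3816, 2669 and 4038 CPM at 72 h, and 2748, 3022 and 2889 CPM in controls. It was above all controls at 48 h but below all of them in the passage 13 library at 72 h, and its log2 fold changes of 0.45 (adjusted p = 0.109) and 0.28 (adjusted p = 0.282) did not pass the test. By DESeq2 the 48 h difference did (0.47, adjusted p = 0.0264).

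Lactate dehydrogenase is a tetramer of LDHA subunits, which favour making lactate from pyruvate and are induced by HIF, and LDHB subunits, which favour the reverse. LDHB (ENSG00000111716) stood at 192, 210 and 249 CPM at 48 h, at 224, 181 and 147 CPM at 72 h, and at 459, 497 and 464 CPM in controls. It had the largest fall of any enzyme here, with a log2 fold change of -1.13 ± 0.17 at 48 h (adjusted p = 0.00216) and -1.36 ± 0.18 at 72 h (adjusted p = 0.000691). Without passage 13 in all groups (-1.05), LDHB lost its 48 h call. In the annotation used here, LDHB exons share 33.4% of their bases with AC010197.2 on the same strand. AC010197.2 is not among the gene identifiers of the files, and any effect of the overlap on the LDHB values was not tested. LDHA stood at 771, 950 and 733 CPM at 48 h, at 705, 725 and 750 CPM at 72 h, and at 1154, 1044 and 1065 CPM in controls. Its log2 fold change was -0.41 ± 0.15 at 48 h (adjusted p = 0.0631) and -0.58 ± 0.15 at 72 h (adjusted p = 0.0132), without overlap. The 72 h call was lost without the control library of passage 12 (-0.54), and without passage 12 (-0.52) or 13 (-0.61) in all groups. At 48 h LDHA was called lower by DESeq2 (-0.39, adjusted p = 0.0159) and without the 48 h library of passage 13 (-0.53) or the 72 h library of passage 8 (-0.41). Per kilobase of exon, the ratio of LDHA to LDHB was 1.93, 2.173 and 1.41 at 48 h, 1.51, 1.93 and 2.45 at 72 h, and 1.21, 1.01 and 1.10 in controls. The ratio was thus higher in every treated library although neither gene was. The LDHA promoter is shown beside that of ALDOC for its 5 matches, 4 of them in 2 palindromes CACGTG that count on both strands (GRCh38.p14, chr11:18394313-18394562, plus strand, 250 bases upstream of the RefSeq start).
LDHA: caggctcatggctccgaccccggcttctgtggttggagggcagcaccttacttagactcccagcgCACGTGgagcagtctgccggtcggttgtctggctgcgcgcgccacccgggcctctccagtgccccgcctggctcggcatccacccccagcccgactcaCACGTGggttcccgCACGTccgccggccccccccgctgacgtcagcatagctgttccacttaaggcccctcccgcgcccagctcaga

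With the forms of each enzyme summed per kilobase of exon, 12 steps from glucose uptake to lactate could be set in order. The weight of each form in such a sum depends on its annotated exon length. At 48 h 3 steps lay above all controls, 7 below and 2 overlapped, and at 72 h 2 lay above, 6 below and 4 overlapped. Of all single genes tested, 25.6% lay above and 28.1% below at 48 h, and 27.3% and 27.7% at 72 h. Glucose uptake (SLC2A1 and SLC2A3) stood at 1.71 times the control mean at 48 h and 1.73 times at 72 h, hexokinase at 1.27 and 1.46 times, and pyruvate kinase at 1.37 and 1.22 times, the last overlapping the controls at 72 h. Lactate dehydrogenase stood at 0.613 and 0.535 times the control mean, enolase at 0.559 and 0.579, glucose-6-phosphate isomerase at 0.607 and 0.513, and glyceraldehyde-3-phosphate dehydrogenase at 0.619 and 0.560. The entry steps and pyruvate kinase were thus the steps above the controls. The 19 enzymes took 0.909% to 1.04% of all counts at 48 h, 0.855% to 0.957% at 72 h and 1.19% to 1.28% in controls.

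**Figure D3:**
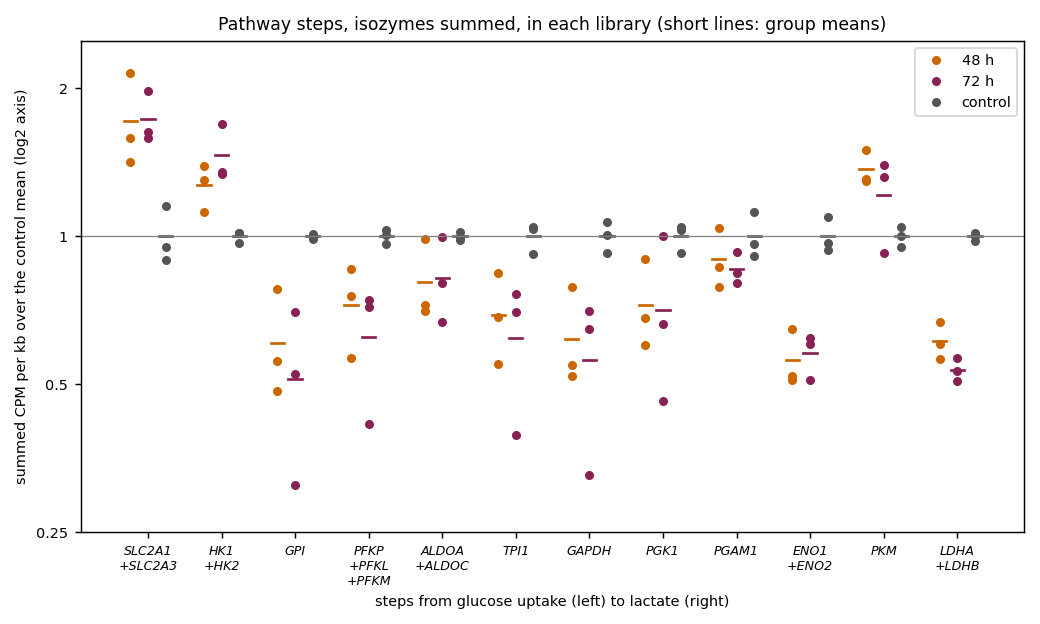
Summed CPM per kilobase of each pathway step over its control mean (log2 axis), with 1 point per library and short lines for group means at 48 h, 72 h and in controls. Glucose uptake and hexokinase lie above 1 in all 6 treated libraries, and steps such as enolase and lactate dehydrogenase lie below 1 in all 6.

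Per kilobase of exon, ENO1 had the highest level of the enzymes in controls (544 CPM per kb), ahead of GAPDH (413) and PKM (337). In treated cells PKM led, with 461 CPM per kb at 48 h and 409 at 72 h, against 304 and 314 for ENO1. The ratio of PKM to ENO1 per kilobase, chosen after the values were seen, was 1.57, 1.26 and 1.79 at 48 h, 1.32, 0.952 and 1.70 at 72 h, and 0.609, 0.593 and 0.660 in controls. In the passage 13 library at 72 h ENO1 was still slightly above PKM per kilobase. The lengths count every annotated exon base of a gene, so such ranks between genes depend on the annotation. By mean CPM without lengths PKM was above ENO1 in each group, in controls at 2887 against 2869 CPM.

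Ratios within a library do not depend on library scaling, and 10 pairs were compared per kilobase of exon. At each time 4 ratios were above the controls in all libraries, 3 were below and 3 overlapped. Those above were PFKFB4 over PFKFB3, ALDOC over ALDOA, LDHA over LDHB and EGLN3 over EGLN1. Those below were PFKP over PFKL, PFKM over PFKL and BNIP3 over BNIP3L. HK2 over HK1, ENO2 over ENO1 and SLC2A3 over SLC2A1 overlapped the controls. With 3 libraries against 3, the two-sided exact permutation test cannot go below p = 0.1, and the 7 separated ratios at each time had that value (0.143 adjusted over 10 pairs).

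**Figure D4:**
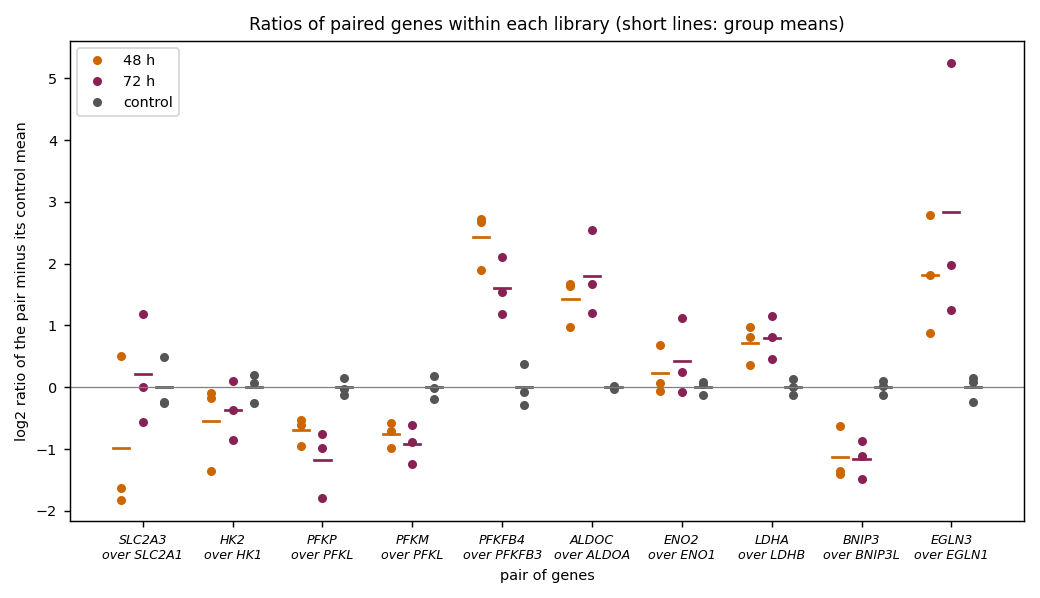
Log2 ratio of each of 10 gene pairs in each library, minus the mean of the control libraries, at 48 h, 72 h and in controls (short lines: group means). PFKFB4 over PFKFB3 and ALDOC over ALDOA lie above 0 in all 6 treated libraries, and the passage 8 library at 72 h is the highest point of EGLN3 over EGLN1.

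RefSeq promoters were at hand for 28 of the 32 genes, all but VEGFA, NDRG1, BNIP3L and SLC2A3. ACGTG or GCGTG on either strand occurred in the 250 upstream bases of 18 of these 28 (64.3%), against 43.2% of 35116 promoters. The 28 are 1 promoter per gene, while the 35116 are all listed promoters, not matched for expression or base composition. The 28 genes were chosen for their roles in hypoxia and glycolysis, and the difference in shares was not tested. By class these were 6 of 8 HIF targets, 12 of 19 enzymes and 0 of 1 transporter. ACGTG alone occurred in 42.9% of the 28 and in 18.5% of all promoters. Among the genes called at both times, at least 1 core was present upstream of PFKFB4 and ALDOC, which rose, and of CA9, ADM and ENO1, which fell, and none was found in this window for SLC2A1 and HK1, which rose, or for LDHB and PFKM, which fell. Among those called at 72 h alone, it was present for ANKRD37, which rose, and for GPI, GAPDH and LDHA, which fell, and not found for EGLN3, which rose, or for PFKP and TPI1, which fell.

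Between 72 h and 48 h no gene of the 32 was called, nor was any of the 15440 tested (0%) by edgeR's quasi-likelihood test. At an unadjusted p under 0.05, 1 of the 32 and 1382 of all genes (8.95%) differed. That 1 gene was PFKFB4, with 26.8, 19.1 and 27.4 CPM at 72 h and 48.7, 30.9 and 43.5 CPM at 48 h, and a log2 difference of -0.75 ± 0.20 (unadjusted p = 0.00415, adjusted p = 0.466). It was the only one of the 32 without overlap between the times, and 5.17% of all genes were lower and 7.07% higher at 72 h without overlap. By DESeq2 50 genes differed between the times, none of them among the 32. With no filter on low counts 211 genes did, 2 of them among the 32.

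HIF1A, the oxygen-regulated subunit that is controlled mainly through protein stability, averaged 234 CPM at 48 h, 290 CPM at 72 h and 240 CPM in controls (log2 fold changes -0.03 and 0.27, neither past the test), and the 72 h value held 404 CPM in the passage 8 library against 220 and 245 CPM. EPAS1, which encodes the related HIF-2 alpha, had log2 fold changes of 0.32 and 0.49, and VHL, the ubiquitin ligase component that removes hydroxylated HIF alpha, 0.34 and 0.41, and neither passed the test. ARNT, the constant partner subunit, rose at 72 h (0.48, adjusted p = 0.0216) and not past the threshold at 48 h (0.40, adjusted p = 0.0538). Of 13 tested HIF subunits and regulators, 1 was higher (7.69%) and 2 lower (15.4%) at 48 h, and 2 higher and 2 lower at 72 h (15.4% each). Of all tested genes, 14.9% were higher and 16% lower at 48 h, and 20.4% and 19.4% at 72 h. CITED2, a HIF-induced inhibitor that competes for a coactivator of HIF, fell most, to 7.96 CPM at 48 h and 8.31 CPM at 72 h, against 29.4 CPM in controls (log2 fold changes -1.89 and -1.83, adjusted p = 0.00221 and 0.00163). HIF1AN, the asparagine hydroxylase that restrains HIF, rose slightly (0.31 and 0.32), and ELOC, a subunit of the VHL ligase complex, fell (-0.48 and -0.64).

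Of 34 other tested hypoxia-induced genes, 9 were higher and 3 lower at 48 h, and 12 were higher and 3 lower at 72 h. These were 26.5% and 35.3% higher, against 14.9% and 20.4% of all tested genes, and 8.82% lower at each time, against 16% and 19.4%. The genes named next were taken for the size of their change, and all of them rose. BHLHE40, a transcriptional repressor induced by HIF and also by TGF-β, averaged 126 CPM at 48 h, 116 CPM at 72 h and 29.8 CPM in controls (log2 fold changes 2.08 and 1.96). MXI1, an antagonist of MYC, had log2 fold changes of 1.57 and 1.55, and MIR210HG, the host transcript of a hypoxia-induced microRNA, 1.70 and 1.67. All of these passed the test at both times.

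Of 10 tested genes for other isozymes and transporters of glycolysis, 3 were higher (30%) and 1 lower (10%) at 48 h. At 72 h 4 were higher (40%) and 1 lower (10%). Of all tested genes, 14.9% were higher and 16% lower at 48 h, and 20.4% and 19.4% at 72 h. The transporter gene SLC2A6 averaged 35.6 CPM at 48 h, 42.9 CPM at 72 h and 8.93 CPM in controls (log2 fold changes 1.99 and 2.26), and BPGM, which makes 2,3-bisphosphoglycerate, rose by 1.75 and 1.46 on the log2 scale. SLC2A8 fell (-0.56 and -0.53). Among 16 genes of pyruvate and lactate handling, 2 were higher and 2 lower at 48 h, and 3 higher and 3 lower at 72 h. The 2 phosphatases that reactivate pyruvate dehydrogenase went opposite ways, PDP2 rising (1.38 and 1.44) and PDP1 falling (-0.94 and -1.28), and PC, pyruvate carboxylase, rose to 325 CPM at 48 h and 332 CPM at 72 h, against 150.3 CPM in controls.

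Of the 9 pentose phosphate genes, 5 were higher (55.6%) and 3 lower (33.3%) at 48 h, and 2 higher (22.2%) and 3 lower (33.3%) at 72 h. The shares of all tested genes were 14.9% and 16% at 48 h, and 20.4% and 19.4% at 72 h. PRPS1 (-1.29 and -1.27) and PRPS2 (-0.80 and -1.04), which make the ribose donor of nucleotide synthesis, fell. Among 19 genes of glycogen metabolism, 2 were higher and 2 lower at 48 h, and 3 higher and 2 lower at 72 h. PYGL, a glycogen phosphorylase, rose (0.97 and 0.83), as did PPP1R3D, which targets a phosphatase to glycogen (0.74 and 0.65), and PGM2, a sugar phosphomutase, fell (-1.23 and -1.36).

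The passages differed in the treated cells in a way that many of the 32 genes shared. This was noticed after the values were seen. In 14 of the 32 (43.8%), the passage 13 library was the highest and the passage 8 library the lowest at both treated times, against 994 of the 15440 tested genes (6.44%). They were CA9, BNIP3, BNIP3L, EGLN1, PDK1, SLC2A3, HK2, GPI, PFKL, ALDOA, TPI1, GAPDH, PGK1 and ENO2, from both the hypoxia and the glycolysis class. In EGLN1 the highest 48 h library was 1.001 times the lowest. In the controls 3 of these 14 genes had the same order. The 48 h and 72 h libraries of a passage share that passage, so the times are not independent, and other measures of the libraries, such as the MALAT1 and ribosomal shares of the passage 8 library at 72 h, moved with it, with a part in this order that was not tested. The count was 13 genes with CPM on unscaled library totals and 11 with upper-quartile scaling, settings chosen after seeing the data, against 6.24% and 5.79% of all genes.

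PFKM, PKM and EGLN3 were highest in the passage 8 library at both treated times, and ADM was highest in passage 12 and lowest in passage 13. Over the 32 genes, the highest library of a group was at the median 1.53 times the lowest at 48 h, 1.57 times at 72 h and 1.16 times in controls. The widest spread was that of EGLN3 at 72 h.

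**Figure D5:**
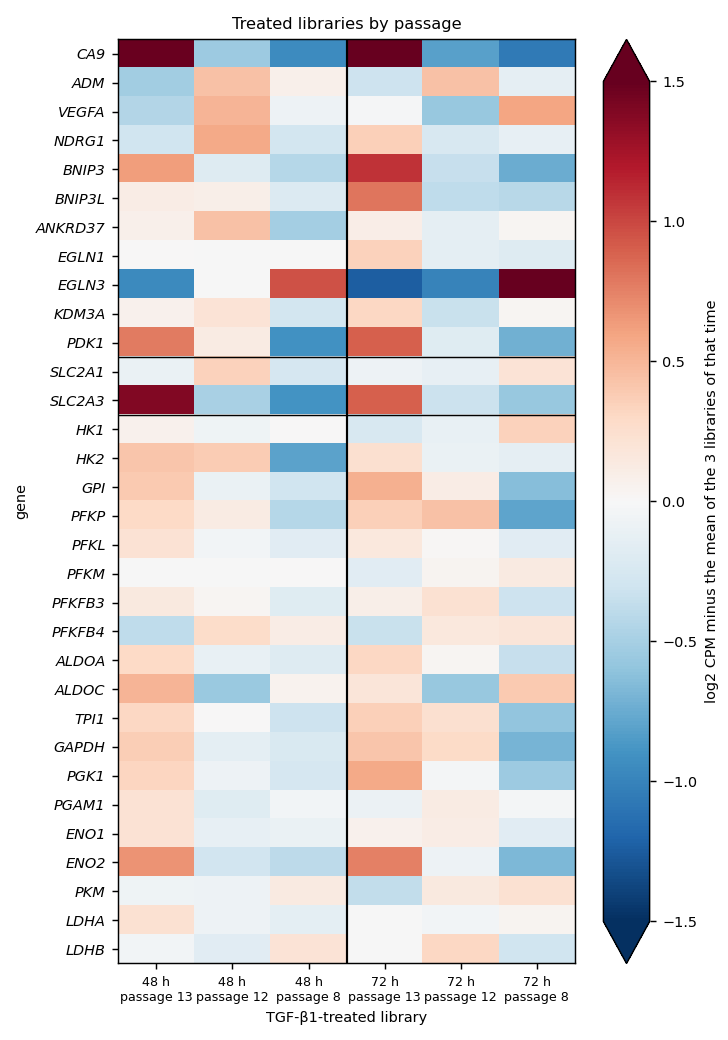
Log2 CPM of each gene in each treated library minus the mean of the 3 libraries of that time, with the libraries of 48 h (left) and 72 h (right) in the order of passages 13, 12 and 8, and lines between HIF targets, transporters and enzymes. Colours beyond 1.5 are cut off. The 14 genes named above run from red (passage 13) to blue (passage 8) at both times, too faintly to see for EGLN1 at 48 h, while EGLN3 runs the other way.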

How the data were processed

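The deposited values are counts of reads per gene and library, not normalized by the authors, on genome build hg38 per the labels. Among the tools in the submitters' processing notes are STAR 2.5.2a and featureCounts 1.5.0-p1. How strand and multiply aligned reads were handled, and with which annotation release, is not given in these sources. Symbols, coordinates and exon lengths came from GENCODE (release 29, GRCh38).

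Genes were tested with edgeR 4.0.16 (TMM scaling, filterByExpr, all 9 libraries in 1 model of group, robust quasi-likelihood F tests with 6 residual degrees of freedom, Benjamini-Hochberg adjustment over 15440 genes, threshold 0.05), and the fit was tested on simulated data. CPM used TMM-scaled library sizes. Approximate standard errors divide the size of a log2 fold change by the root of its F. Within-library ratios of CPM per kilobase of exon were compared with exact permutation tests (scipy 1.17.1). The exon length of a gene counts each base of its annotated exons 1 time. Same-numbered libraries share a passage per the labels, so an alternative fit used the passage as a block, leaving 4 residual degrees of freedom. Deviations of same-numbered libraries correlated at 0.113, 0.078 and 0.121 (48 h and control), 0.038, 0.109 and 0.100 (72 h and control) and -0.025, 0.490 and 0.493 (72 h and 48 h). Other alternatives were DESeq2 1.42.0, other scalings, filters and thresholds, a fit of only the 2 groups compared, and leaving out libraries. The labels do not say that libraries came from independent experiments beyond the passage, so p-values measure the spread between these libraries. Promoters came from RefSeq (GRCh38.p14).

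The genes and lists were chosen with earlier results of these data known. All 32 were named, with values in every library for genes called at both times and for their partners in the pairs, and for several of the others. From each other list, up to 3 genes with the largest mean change among those called at both times were named. A gene that this rule takes is not reported here.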

Additional observations from a re-analysis of the deposited data

How the results depend on the processing

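Of the 64 log2 fold changes against control (32 genes at 2 times), all 64 kept their direction and side of the threshold with a filter of 1 CPM in 3 libraries, 63 with DESeq2 size factors in edgeR, 62 with upper-quartile scaling, 60 by DESeq2, 54 with the passage block, 54 in fits of only the 2 groups compared and 52 with no filter. The block ended no call, gave 6 higher and 9 lower calls among the 32 at 48 h and 10 higher and 12 lower at 72 h (6 and 5, and 8 and 10, without it) and, beside the changes given above, turned the sign of HK2 (-0.036) and SLC2A3 (-0.056) at 48 h.

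The count of HIF targets called lower was 1 at each time with no filter, and 0 at 48 h and 1 at 72 h at an adjusted p under 0.01, where 2 were called higher at 72 h. At 48 h, 4 HIF targets were called higher when only those groups were fitted. The count of enzymes called lower at 48 h was 7 with no filter, 6 with the passage block and 7 when only those groups were fitted, and at 72 h it was 5 in the fit of only those groups and 3 at an adjusted p under 0.01, where 1 enzyme was called higher at 48 h. With no filter, 1 HIF target was called higher and 1 enzyme lower at 72 h against 48 h. With no filter 36944 genes were tested, of which 6.15% were lower at 48 h and 7.5% at 72 h. Of all tested genes at 48 h, 16.5% were lower with the block and 20.1% when only those groups were fitted. With only those groups fitted, 21.5% were higher at 48 h and 18.4% lower at 72 h. At an adjusted p under 0.01, 6.79% were higher and 6.58% lower at 48 h, and 10.9% and 10.8% at 72 h. The cause of the shifts in the counts of HIF targets and enzymes was not tested.

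Leaving out 1 library, or 1 passage from all groups, gave at 48 h 1 to 3 HIF targets higher and 0 to 2 lower, and 1 to 3 enzymes higher and 0 to 8 lower. At 72 h it gave 1 to 4 HIF targets higher and 0 to 4 lower, and 2 to 3 enzymes higher and 2 to 8 lower. For 72 h against 48 h it gave 0 to 0 of either class in either direction. The 8 lower enzymes at 48 h came without the passage 8 library at 72 h, and the 0 came without passage 13. Of all tested genes, 20.1% were lower at 48 h in the first of these settings and 3.11% in the second. In the fit of all libraries 16% were. On leaving out libraries or passages, 2.61% to 19.6% of all genes were higher and 2.27% to 20.1% lower at 48 h. At 72 h 9.93% to 19.9% were higher and 6.77% to 18.9% lower. The sign turned on leaving out a library or passage for genes not called in the fit of all libraries, namely HK2 (range -0.16 to 0.33), SLC2A3 (-0.90 to 0.46) and PFKL (-0.051 to 0.21) at 48 h, and EGLN1 (-0.13 to 0.17), KDM3A (-0.0045 to 0.42), BNIP3 (-1.03 to 0.097) and ENO2 (-0.71 to 0.029) at 72 h. ACGTG alone moved the shares of promoters to 18.5% of all and 42.9% of the 28. Low counts limit CA9 in treated cells, ANKRD37, SLC2A3 and ENO2.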
